A study of Mus musculus with 7 samples.

Results

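The 10 nuclear genes described here encode proteins that copy, transcribe and stabilise the products of the mitochondrial genome: Polg, Polg2, Ssbp1, Top1mt, Polrmt, Tfb1m, Tfb2m, Mterf2, Lrpprc and Slirp. They were chosen by symbol, through the Ensembl gene identifiers of the deposited tables, and all 10 were found among 22027 listed genes. RNA was taken from the left ventricle of 12-month-old mice of the strain C57BL/6J in 2 groups, 4 libraries labelled G3 and 3 labelled G3 PGC1aOE. The series text calls G3 telomerase-deficient and describes the other group as G3 with PGC1alpha overexpressed, so the telomerase deficiency is shared by both groups. Which gene was deleted, what promoter drives PGC1alpha and in which cells it acts are not stated in the labels. Each library also carries a code in its description, whose number is 40, 67, 50 and 83 in turn within G3 and 55, 81 and 82 in turn within G3 PGC1aOE. The text in that code reads G2 and not G3 for G3 1, G3 3 and G3 PGC1aOE 1. The letters before that text are C, C, none and P in turn within G3, and PC in every library labelled G3 PGC1aOE. The meaning of neither is stated.

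Mitochondria hold their own small circular genome, which encodes a few subunits of the respiratory chain and ATP synthase together with the RNAs needed to translate them. Every protein that replicates, transcribes or protects that genome is encoded in the nucleus and imported. The heart is rich in mitochondria, and PGC1alpha is known as a coactivator that works with nuclear factors such as NRF1, GABP, ERRalpha and YY1 on nuclear genes of mitochondrial function.

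The start regions of the members were read first, because these are the stretches where such factors would bind. RefSeq windows of 300 bases, running from 250 bases before to 50 after a gene's start (GRCm38.p6), were found for 9 of the 10 members, with 2 windows for Mterf2. The share of G and C ran from 52% in Polrmt to 67.3% in Tfb2m, beside a median of 52.7% over 32851 windows of the same length, so the windows of Polrmt and of Polg2, at 53.3%, were near that median. The number of CG pairs ran from 10 in each Mterf2 window to 32 in Tfb2m, beside a median of 7. Both strands were searched for 4 short motifs, which share no bases in these windows. Other spellings of the same sites were not searched, so a member without a match may still hold a site of that factor. GCGCATGCG, the core of the NRF1 site, stood in Tfb2m alone among the members and in 1.75% of all windows. CCGGAAGT, a site of ETS family factors, which include GABP, stood in Polg alone and in 3.89% of all windows. AAGATGGCG, a YY1 site, stood in Slirp alone and in 1.4% of all windows, and TNAAGGTCA, a site of oestrogen-related receptors, stood in no member and in 1.28% of all windows. The windows of the 3 members with a match are shown, with the matched bases in capitals, and each match is a description of letters only. That of Polg lies at chr7:79466224-79466523 on the minus strand, and its match begins 38 bases before the start (-38). That of Slirp lies at chr12:87443646-87443945 on the plus strand, with the match on the reverse strand from -86. That of Tfb2m lies at chr1:179546227-179546526 on the minus strand, with the match on the reverse strand from base 13 of the gene. The deposited tables used another build, mm9, so these coordinates belong to the sequences and not to the read counts.
Polg: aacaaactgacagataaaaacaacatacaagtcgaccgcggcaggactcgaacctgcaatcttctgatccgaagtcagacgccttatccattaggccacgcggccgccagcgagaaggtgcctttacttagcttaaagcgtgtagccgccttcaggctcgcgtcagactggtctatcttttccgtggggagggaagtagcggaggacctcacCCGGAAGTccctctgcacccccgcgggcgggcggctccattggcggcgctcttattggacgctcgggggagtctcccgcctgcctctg
Slirp: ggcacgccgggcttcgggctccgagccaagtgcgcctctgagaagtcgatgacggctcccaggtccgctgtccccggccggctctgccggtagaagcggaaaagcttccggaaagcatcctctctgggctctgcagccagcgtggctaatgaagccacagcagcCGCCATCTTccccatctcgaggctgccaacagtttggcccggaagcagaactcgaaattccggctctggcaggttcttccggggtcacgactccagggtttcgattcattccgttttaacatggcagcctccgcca
Tfb2m: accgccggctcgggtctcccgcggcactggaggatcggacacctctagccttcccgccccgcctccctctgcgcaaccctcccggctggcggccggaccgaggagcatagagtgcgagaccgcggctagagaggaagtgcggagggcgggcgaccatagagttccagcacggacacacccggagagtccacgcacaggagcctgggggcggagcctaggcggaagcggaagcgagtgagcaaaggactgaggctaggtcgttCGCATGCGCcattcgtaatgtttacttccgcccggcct

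Total counts ran from 10106705 to 16056740 per library, and 12674 genes had enough counts to be tested. Ppargc1a, the gene of PGC1alpha, did not separate the groups as the labels would have it: its level in G3 1 to 4 was 94.7, 56.8, 118 and 86.7 CPM (counts scaled to a common library total, with TMM factors), against 103, 43.9 and 58.1 CPM in the libraries labelled G3 PGC1aOE. The log2 fold change was -0.38 (SE 0.34; edgeR, adjusted p = 0.847), so every direction below rests on the label alone. Cardiomyocyte markers were abundant in all libraries, with a summed level of 48589 to 66371 CPM in G3 and 52088 to 74596 CPM in the libraries labelled G3 PGC1aOE, and 4 of 9 lay higher in the latter. Fibroblast markers summed to 539 to 1109 CPM against 1035 to 1500 CPM, with 6 of 8 higher. Schwann cell markers, of which 3 of 4 were tested and all 3 lay higher, summed to 4.48 to 7.76 CPM against 11.2 to 18.3 CPM. Adipocyte markers, 5 of 5 of them higher, summed to 419.98 to 694 CPM against 436 to 1301 CPM. Endothelial markers, 6 of 7 higher, summed to 612 to 816 CPM against 609.7 to 1298 CPM, and macrophage markers, 5 of 6 higher, to 169 to 438 CPM against 322 to 427 CPM. Atrial markers, 4 of 4 higher, summed to 72.3 to 2803 CPM against 468 to 3923 CPM. None of these markers was at 0 in every library. The part of cell composition in the values below was not tested, and in whole tissue fewer cells of a type and less RNA per cell cannot be told apart.

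The mitochondrially encoded share of counts is the readout nearest to what these proteins act on. The 13 protein-coding genes of the mitochondrial genome together took 24.7%, 26.0%, 31.4% and 34.5% of counts in G3 1 to 4, against 27.7%, 32.4% and 42.4% in order in the libraries labelled G3 PGC1aOE. The group means were 29.2% ± 4.57 (SD, n = 4) and 34.1% ± 7.52 (SD, n = 3), and the groups overlapped. The difference of 4.98 percentage points was within the spread between libraries (exact permutation test over 35 splits, two-sided, p = 0.371, the smallest possible being 0.0286). It rested on 1 library, since without G3 PGC1aOE 3 it was 0.855 percentage points. That library also had the most of the atrial markers Myl4, Myl7 and Sln, at 433, 420 and 189 CPM where no other passed 134, 141 and 50.8 CPM. The remaining atrial marker, Nppa, was not highest there: it had 1246 CPM, below 2400, 2477 and 3921 CPM in G3 1, G3 2 and G3 PGC1aOE 1. The part of these markers in the share was not tested. The 3 libraries with code numbers of 80 and above, which include G3 4, held the 3 highest shares, from 32.4% to 42.4%, while the other 4 lay between 24.7% and 31.4%. Library G3 PGC1aOE 2 had an unusual makeup within this share: mt-Nd5 took 0.831% of its counts where the other 6 libraries had 1.34% to 2.05%, while mt-Cytb took 3.61%, above 5 of the other 6.

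None of the 10 members passed the threshold between the groups. By edgeR's quasi-likelihood test with Benjamini-Hochberg adjustment, 0% of the genes tested passed, and 4.32% had an unadjusted p under 0.05, 3.05% with the libraries labelled G3 PGC1aOE higher. Among the members that was so for Slirp alone, and 5 of the 10 had a positive fitted log2 fold change and 5 a negative one. Their median log2 fold change was -0.038, beside 0.0076 over all genes tested. Polg was the only member whose groups did not overlap, and 4.58% of all genes tested were apart in this way, 2.39% of genes with the libraries labelled G3 PGC1aOE lower.

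**Figure D1:**
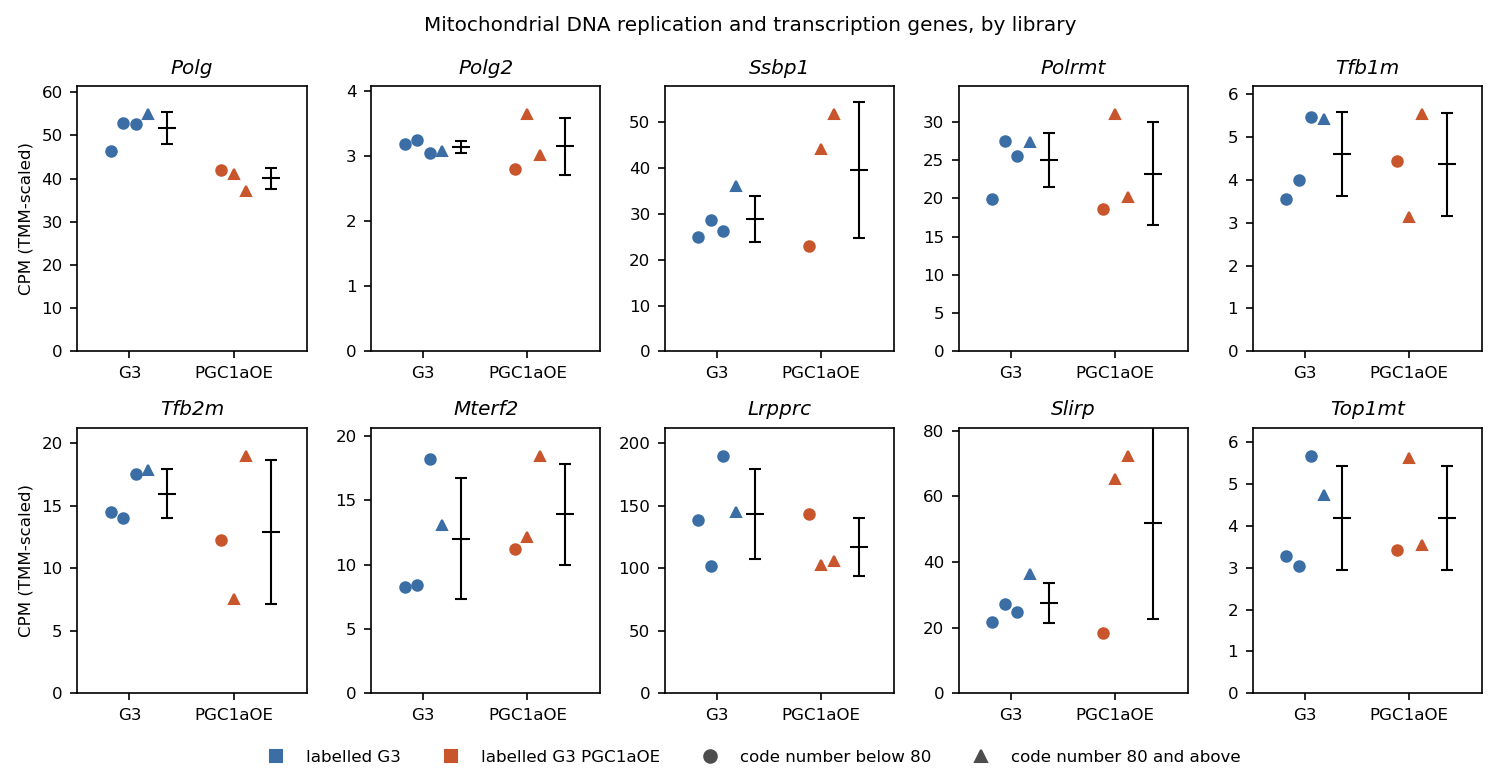
Level of each member in every library, as CPM after TMM scaling, for the 4 libraries labelled G3 (blue) and the 3 labelled G3 PGC1aOE (orange), with circles for code numbers below 80 and triangles for 80 and above, and bars for the mean and SD of each group. Polg lies between 46.5 and 54.9 CPM in G3 and between 37.3 and 41.9 CPM in the libraries labelled G3 PGC1aOE, whereas the 2 highest Slirp points belong to G3 PGC1aOE 2 and 3 and the lowest to G3 PGC1aOE 1.

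Of the replication genes, Polg, the catalytic subunit of the mitochondrial DNA polymerase and the holder of the ETS match shown above, had the steadiest difference. Its level was 46.5, 53.0, 52.7 and 54.9 CPM in G3 1 to 4, against 41.9, 41.0 and 37.3 CPM in order in the libraries labelled G3 PGC1aOE. All 3 libraries labelled G3 PGC1aOE lay below all 4 labelled G3. The means were 51.8 ± 3.64 CPM (SD, n = 4) and 40.1 ± 2.47 CPM (SD, n = 3), and the log2 fold change was -0.37 (SE 0.19, 95% interval -0.78 to 0.04; edgeR, adjusted p = 0.847). Under the 19 other settings tried, the fold change stayed between -0.48 and -0.32, and its smallest adjusted p was 0.311. Within the code numbers below 80, where 1 library labelled G3 PGC1aOE faced 3 of the other label, mean log2 CPM differed by -0.27, and from 80 upwards, with 2 against 1, by -0.49. In a later annotation (GENCODE M21) some Polg exon bases overlap Fanci on the opposite strand, and Fanci had 0 to 3 counts per library.

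Polg2, the accessory subunit that helps the polymerase stay on its template, showed no such difference. The libraries G3 1 to 4 gave 3.19, 3.25, 3.05 and 3.08 CPM, and the 3 labelled G3 PGC1aOE gave 2.79, 3.64 and 3.02 CPM, from 34 to 50 counts per library. The highest and the lowest library both carried the label G3 PGC1aOE, and the log2 fold change was 0.0038 (SE 0.27, interval -0.60 to 0.60). Since the 2 subunits work as one enzyme, their ratio within a library is of interest. The FPKM of Polg (fragments per length and library total, as deposited) was 12.2, 13.6, 14.4 and 14.9 times that of Polg2 in G3 1 to 4. In G3 PGC1aOE 1 to 3 it was 12.5, 9.39 and 10.3 times that of Polg2, so the groups overlapped through G3 1 and G3 PGC1aOE 1. In the later annotation 132 of 4356 exon bases of Polg2 overlap Milr1 on the opposite strand, and Milr1 had 9 to 22 counts per library.

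Ssbp1, which coats the single strand exposed at the replication fork, followed the code number more closely than the label. CPM values were 24.99, 28.6, 26.2 and 36.2 in G3 1 to 4, set against 23.1, 44.3 and 51.8 in the libraries labelled G3 PGC1aOE. The 3 libraries with code numbers of 80 and above were the 3 highest whatever their label, and G3 PGC1aOE 1 was the lowest of all. The log2 fold change between the labels was 0.45 (SE 0.28, interval -0.17 to 1.07, edgeR adjusted p = 0.847). It was 0.087 once a term for code numbers below 80 or not was added to the fit. Mean log2 CPM differed by -0.20 within the codes below 80 and by 0.40 from 80 upwards.

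Top1mt, a topoisomerase that relieves twisting of mitochondrial DNA, was near the lower end of what was counted, with 36 to 77 counts per library. In order, the 4 libraries labelled G3 held 3.28, 3.03, 5.65 and 4.74 CPM and those labelled G3 PGC1aOE 3.42, 5.61 and 3.53 CPM. High and low libraries occurred under both labels, and the log2 fold change was 0.0056 (SE 0.33, interval -0.71 to 0.72). Differences inside that interval are not excluded at this depth and number of libraries, and its bounds are not a limit of detection. In the later annotation 95 of 2043 exon bases of Top1mt overlap Gm15945 on the opposite strand, a gene not listed in the deposited counts.

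Transcription of the mitochondrial genome is carried out by Polrmt, a single-subunit RNA polymerase, with Tfb2m, the factor that opens the promoter. The level of Polrmt was 19.9, 27.4, 25.5 and 27.4 CPM in G3 1 to 4, against 18.6, 30.9 and 20.2 CPM in order in the libraries labelled G3 PGC1aOE. G3 PGC1aOE 2 was the highest library and G3 PGC1aOE 1 the lowest, so one group spanned the other, and the log2 fold change was -0.11 (SE 0.24, interval -0.64 to 0.42). Leaving out G3 PGC1aOE 2 gave -0.37, and leaving out G3 PGC1aOE 1 gave 0.025.

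Tfb2m, whose start region holds the NRF1 match shown above, had 1 low library. The libraries G3 1 to 4 gave 14.5, 14.0, 17.5 and 17.8 CPM, and the 3 labelled G3 PGC1aOE gave 12.3, 7.50 and 18.9 CPM. The libraries labelled G3 PGC1aOE held both the highest and the 2 lowest values. The log2 fold change was -0.31 (SE 0.29, interval -0.96 to 0.34; edgeR, adjusted p = 0.849). Leaving out G3 PGC1aOE 2 gave -0.033, and leaving out G3 PGC1aOE 3 gave -0.69. Library G3 PGC1aOE 2, the low one, is also the library with the low mt-Nd5 share, and whether these are related was not tested. That library was also the lowest for other nuclear genes, such as Gabpa at 18.7 CPM and Rrm2b at 9.90 CPM. For Polrmt it was the highest, at 30.9 CPM.

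Tfb1m, a relative of Tfb2m that methylates the small ribosomal RNA of mitochondria, gave 39 to 75 counts per library. CPM values were 3.56, 3.99, 5.47 and 5.41 in G3 1 to 4, set against 4.42, 3.13 and 5.52 in the libraries labelled G3 PGC1aOE. The groups overlapped widely, and the log2 fold change was -0.080 (SE 0.30, interval -0.74 to 0.58). G3 PGC1aOE 2 was the lowest library for Tfb1m as it was for Tfb2m. Over the 7 libraries the log2 CPM of both genes had a Pearson r of 0.851, a description that rests partly on this 1 library. In the later annotation 142 of 3609 exon bases of Tfb1m overlap exons of Tiam2 on the opposite strand. Tiam2 had 34 to 63 counts per library, and reads of both cannot be told apart there where strand is not marked.

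Mterf2, of the mitochondrial termination factor family, varied mostly within the groups. In order, the 4 libraries labelled G3 held 8.30, 8.42, 18.2 and 13.1 CPM and those labelled G3 PGC1aOE 11.2, 12.2 and 18.4 CPM. G3 3 and G3 PGC1aOE 3 stood highest, and the 2 lowest libraries were G3 1 and G3 2. The log2 fold change was 0.21 (SE 0.31, interval -0.48 to 0.91; edgeR, adjusted p = 0.887). Leaving out G3 PGC1aOE 3 gave -0.042, and leaving out G3 3 gave 0.47. Its exons overlap those of Tmem263 on the opposite strand, which had 115 to 205 counts per library beside 91 to 250 for Mterf2, and reads of both cannot be told apart where strand is not marked.

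Lrpprc and Slirp form a complex that binds mitochondrial messenger RNAs and protects them from decay, yet their messages did not move together in these libraries. Lrpprc had 139, 102, 189.6 and 145 CPM in G3 1 to 4, against 144, 102 and 106 CPM in order in the libraries labelled G3 PGC1aOE. G3 3 was the highest library, and the 3 lowest were G3 2 and the last 2 of those labelled G3 PGC1aOE. The log2 fold change was -0.29 (SE 0.27, interval -0.88 to 0.30; edgeR, adjusted p = 0.847). Leaving out G3 3 gave -0.15, and leaving out G3 PGC1aOE 1 gave -0.47.

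Slirp had the largest fold change of the 10 members. The libraries G3 1 to 4 gave 21.9, 27.2, 24.8 and 36.2 CPM, and the 3 labelled G3 PGC1aOE gave 18.3, 65.4 and 72.1 CPM. G3 PGC1aOE 2 and 3 lay above every library labelled G3, while G3 PGC1aOE 1 lay below them all. The means were 27.5 ± 6.20 CPM (SD, n = 4) and 51.9 ± 29.3 CPM (SD, n = 3), and the log2 fold change was 0.92 (SE 0.40, interval 0.033 to 1.80; edgeR, unadjusted p = 0.0433, adjusted p = 0.847). The 3 libraries with code numbers of 80 and above were again the 3 highest. Mean log2 CPM differed between the labels by -0.42 within the codes below 80 and by 0.92 from 80 upwards. Adding a term for code numbers below 80 or not to the fit gave a log2 fold change of 0.23. Without G3 PGC1aOE 3 the fold change was 0.60, and without G3 PGC1aOE 1 it was 1.32 (adjusted p = 0.0982).

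Slirp and Ssbp1 were the members whose libraries with code numbers below 80 and of 80 and above did not overlap. Of all genes tested, 19% were apart in this way, 10.2% of genes being higher at 80 and above, as both of these members were. Summed markers of endothelial cells and adipocytes also stood highest at 80 and above. In G3 4 and G3 PGC1aOE 2 and 3 the endothelial sum was 816, 1298 and 891 CPM, beside at most 779 CPM in the other 4 libraries. The adipocyte sum was 694, 1301 and 866 CPM there, beside at most 549 CPM, and was mostly Fabp4, at 693, 1276 and 820 CPM. The other adipocyte markers did not divide in this way, and Adipoq and Cfd were lowest of all in G3 4, at 0.075 and 0.23 CPM. Of the endothelial markers, Egfl7 and Tie1 stood highest in these libraries, while Pecam1, Cdh5, Kdr, Emcn and Eng did not divide in this way. Of the cardiomyocyte markers, Myl2 and Tnni3 also stood highest there, at 11529, 19523 and 11972 CPM and at 4928, 9312 and 5637 CPM. Ryr2 stood lowest there, at 953, 366 and 509 CPM. The other cardiomyocyte markers and the cardiomyocyte sum did not divide in this way. The part of these cell types in the Slirp and Ssbp1 values was not tested. Over the 7 libraries the log2 CPM of Slirp and Ssbp1 had a Pearson r of 0.989, the highest of the 45 pairs of members, while that of Slirp and Lrpprc was -0.614. The FPKM of Lrpprc was 3.30, 1.94, 3.98 and 2.08 times that of Slirp in G3 1 to 4, and 4.09, 0.815 and 0.761 times that of Slirp in G3 PGC1aOE 1 to 3. The order of the pair was thus turned in G3 PGC1aOE 2 and 3.

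Measurements that bear on the Slirp values were the gene's length and its neighbour. The deposited length of Slirp was 1050 bp, and 14.7% of genes tested were shorter. Across all genes tested, length and log2 fold change had a Spearman rho of -0.341, which is across genes that are not independent replicates. With each library's trend on gene length removed, a setting chosen after seeing the data, the log2 fold change of Slirp was 0.72 and that of Ssbp1 0.44. In the later annotation 2914 of 3104 exon bases of Slirp overlap exons of Snw1 on the opposite strand, and reads of both cannot be told apart where strand is not marked. The deposited length is shorter than those 3104 bases, so the overlap within the gene model that was counted is not known. Snw1 had 285, 309, 236 and 297 counts in G3 1 to 4, then 314, 103 and 307 in the other group, beside 240, 368, 276 and 482 and then 236, 898 and 980 counts for Slirp. Of the 2 highest Slirp libraries, G3 PGC1aOE 2 had the lowest Snw1 count of all and G3 PGC1aOE 3 one of the higher counts. These counts are not scaled to the library total, which was largest in G3 PGC1aOE 3. On the log2 CPM scale Slirp and Snw1 had a Pearson r of -0.599 over the 7 libraries.

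**Figure D2:**
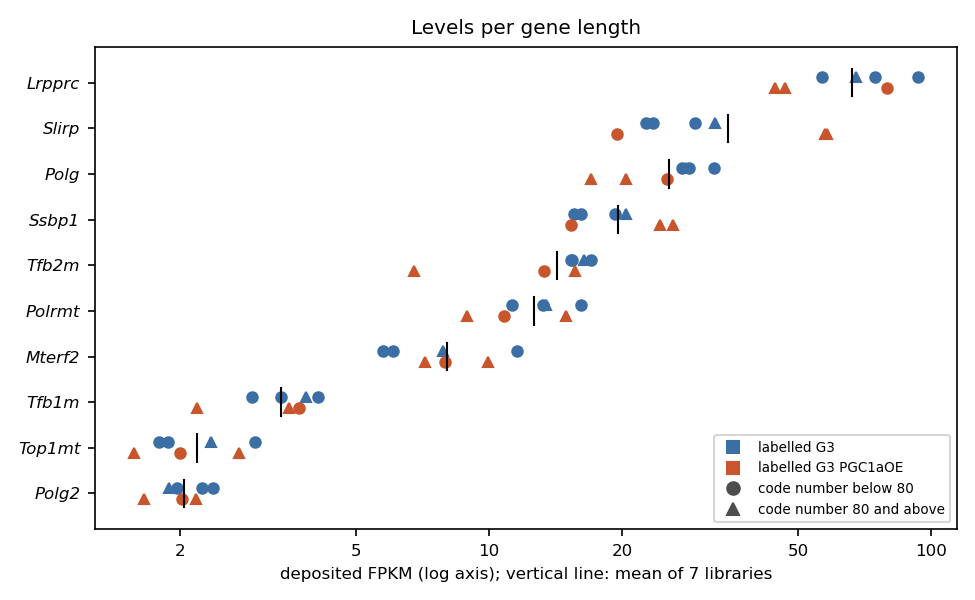
Deposited FPKM of each member on a log axis, 1 point per library (blue for G3, orange for G3 PGC1aOE, circles for code numbers below 80, triangles for 80 and above), with a vertical line at the mean of the 7 libraries. Lrpprc has the highest mean, 66.1 FPKM, and Polg2 the lowest, 2.04 FPKM, and Slirp has the widest spread.

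Levels of different genes can be compared per length only, and on the FPKM scale Lrpprc stood highest. The mean over the 7 libraries was 66.1 FPKM for Lrpprc, with single libraries from 44.3 to 93.3. Slirp followed at 34.7, Polg at 25.5, Ssbp1 at 19.6, Tfb2m at 14.3, Polrmt at 12.7, Mterf2 at 8.05, Tfb1m at 3.38, Top1mt at 2.18 and Polg2 at 2.04 FPKM. The place of Slirp rests on G3 PGC1aOE 2 and 3: it exceeded Polg in 3 of 7 libraries, and within G3 its mean of 26.9 FPKM was below the 28.9 FPKM of Polg. Neighbours in that order overlapped in their ranges in all cases but one: the lowest library for Mterf2, at 5.75 FPKM, lay above the highest for Tfb1m, at 4.10 FPKM. The catalytic polymerase subunit was thus listed well above its accessory subunit, and Tfb2m above Tfb1m in 7 of 7 libraries, by a factor of 3.10 to 5.28. As a share of the mean, the spread over the libraries was 47.2% for Slirp, between 19.2% and 27.1% for 8 members and 11.8% for Polg2.

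Beside the mitochondrially encoded share, 3 members lay higher in libraries where that share was higher. For this relation the members were scaled on nuclear counts only. Over the 7 libraries Pearson's r was 0.842 for Ssbp1 (exact permutation p over 5040 orders = 0.0133), 0.82 for Mterf2 (p = 0.02) and 0.797 for Slirp (p = 0.0258). Spearman's rho was 0.786 for Ssbp1 (p = 0.048), 0.893 for Mterf2 (p = 0.0123) and 0.786 for Slirp (p = 0.048). None of the 3 passed after Benjamini-Hochberg adjustment over the 12763 genes in this family, at adjusted p = 0.352, 0.382 and 0.399. Of those genes 0% passed, with a smallest adjusted p of 0.34, and 11.1% had an unadjusted p under 0.05.

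Without the 2 libraries farthest from the median share, G3 1 and G3 PGC1aOE 3, the relation was looser for these 3 members. Over the remaining 5, r was 0.64 for Ssbp1, 0.66 for Mterf2 and 0.581 for Slirp, while that of Top1mt was 0.835, up from 0.296 over all 7, and that of Polrmt 0.466. For the other 7 members r over all libraries ran from -0.449 for Polg to 0.584 for Tfb1m, and that for Polrmt, the polymerase itself, was 0.031. On log2(FPKM + 1), where the library total includes the mitochondrially encoded counts, r was -0.884 for Polg2, which had -0.073 on the nuclear scale, and -0.761 for Polg, beside 0.739 for Ssbp1, 0.65 for Mterf2 and 0.74 for Slirp. Since the share was highest in the libraries with code numbers of 80 and above, the relation and the code number cannot be told apart for Ssbp1 and Slirp, and the 4 and 3 libraries on either side of 80 are too few for a correlation within them.

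**Figure D3:**
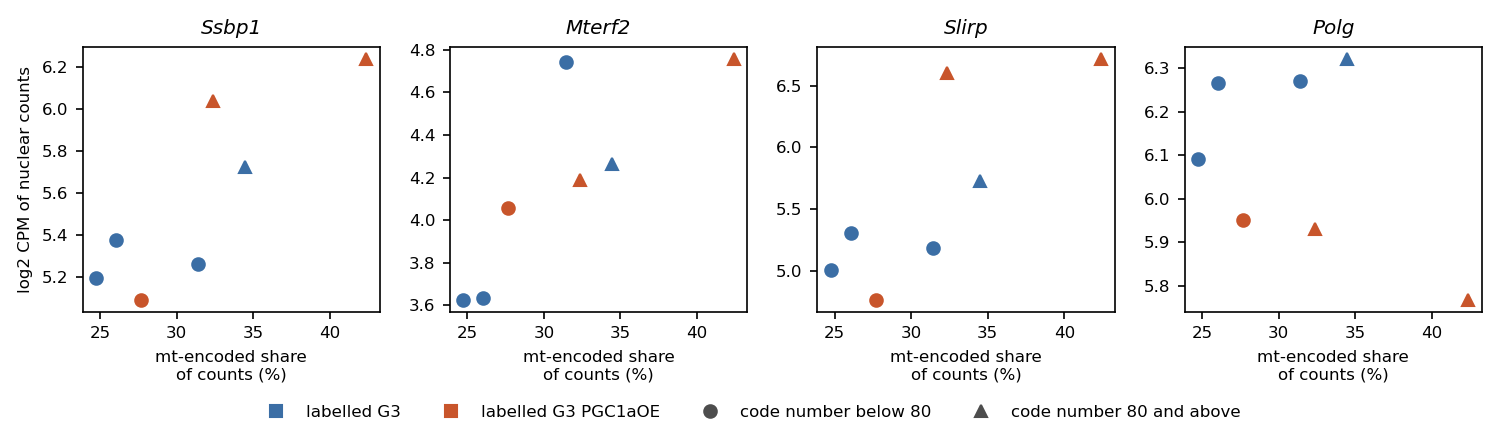
Log2 CPM, scaled on nuclear counts, against the mitochondrially encoded share of counts in percent, 1 point per library (blue for G3, orange for G3 PGC1aOE, circles for code numbers below 80, triangles for 80 and above), for the 3 members with the highest r and for Polg. Ssbp1, Mterf2 and Slirp lie higher towards the right, with r of 0.842, 0.82 and 0.797, while the lowest Polg point is that of G3 PGC1aOE 3, at a share of 42.4%.

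Other genes of the same processes, in 5 lists with 52 members of which 51 were tested, did not pass either: 0 of 51 passed over all genes tested. Among other replication and repair genes 6 of 10 lay higher in the libraries labelled G3 PGC1aOE, with a median log2 fold change of 0.064. Those of smallest p were Polb, a repair polymerase, at 0.40 (SE 0.24), Lig3, the ligase that seals mitochondrial DNA, at -0.36 (SE 0.26), and Rnaseh1, which removes RNA primers, at 0.28 (SE 0.27). Among other transcription genes 5 of 6 tested lay higher, with a median of 0.18. Mrpl12, a ribosomal protein also described as a partner of Polrmt, had 0.39 (SE 0.33). The elongation factor gene Tefm had 0.29 (SE 0.26), and Mterf3, a relative of Mterf2, had 0.15 (SE 0.20).

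Genes that process or stabilise mitochondrial RNA were evenly divided, with 9 of 18 higher and a median of -0.0028. Ptcd1, a pentatricopeptide repeat protein like Lrpprc, had -0.42 (SE 0.21). Fastkd3 also had -0.42 (SE 0.26), and Elac2, which trims the 3′ end of transfer RNAs, had -0.36 (SE 0.24). Of 8 genes that supply nucleotides to mitochondria 5 lay higher, with a median of 0.096. Dguok, a deoxyguanosine kinase, had 0.27 (SE 0.21), the carrier gene Slc25a36 had -0.29 (SE 0.27), and the ribonucleotide reductase subunit gene Rrm2b had -0.32 (SE 0.33).

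Of 9 genes for nuclear regulators 8 lay lower in the libraries labelled G3 PGC1aOE, with a median log2 fold change of -0.38, where 50.9% of all genes tested lay higher, and 0 of the 9 passed the threshold. Yy1, the factor whose motif stands in the Slirp window, measured 39.0, 39.98, 33.9 and 38.6 CPM in G3 1 to 4, against 31.1, 23.6 and 26.0 CPM in the other group. Its groups did not overlap, as for 4.58% of all genes tested, 2.39% of genes with the libraries labelled G3 PGC1aOE lower. The log2 fold change of Yy1 was -0.50 (SE 0.19; edgeR, adjusted p = 0.847), and any relation of Yy1 to Slirp was not tested. Ppargc1b, the related coactivator, had -0.98 (SE 0.41), and Gabpa, the DNA-binding subunit of GABP, had -0.46 (SE 0.27), both with an adjusted p of 0.847. The list median was -0.22 without G3 PGC1aOE 2 and -0.62 without G3 PGC1aOE 1.

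**Figure D4:**
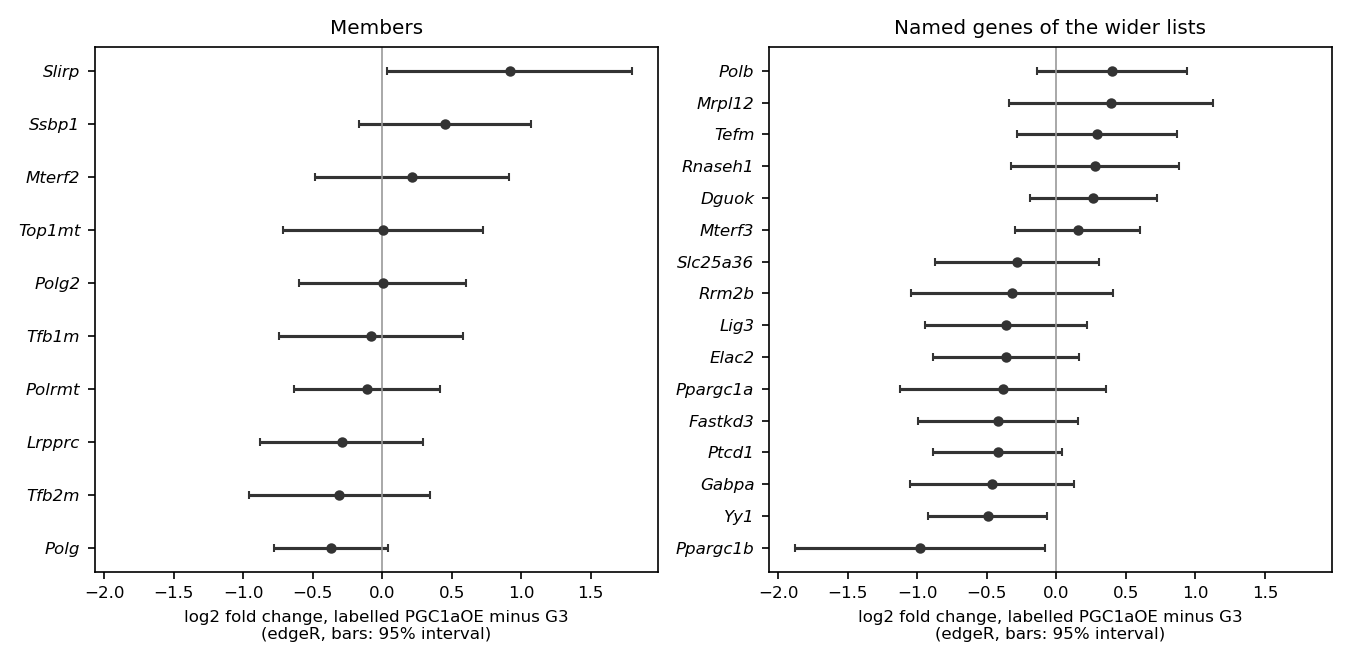
Log2 fold change of the libraries labelled G3 PGC1aOE against G3 for the 10 members (left) and for 16 genes of the wider lists (right), as points with 95% intervals from edgeR. The intervals of 9 of the 10 members include 0, that of Slirp runs from 0.033 to 1.80, and on the right those of Yy1 and Ppargc1b lie below 0, with no gene passing after adjustment.

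The genes whose pattern over the 7 libraries was most like that of 2 central members were looked up among 6135 nuclear genes that averaged at least 4 on the log2 CPM scale. For Polrmt they were Nectin2 (Pearson r = 0.988), Ring1 (0.974) and Dnal4 (0.965). For Lrpprc they were Wnk1 (0.997), Cd99l2 (0.997) and Vwa8 (0.984). With 7 libraries and so many genes these values are descriptions of likeness only.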

How the data were processed

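RNA of left ventricle was sequenced with an Illumina TruSeq RNA kit, per the labels' protocols. The authors deposited read counts per Ensembl gene, not normalized, and FPKM values. Dividing counts by library total and deposited FPKM gave 1 gene length per row, the same in all libraries within 0.00228 bp, so FPKM adds lengths only. CASAVA and Bowtie 0.12.2 were used with mm9, per the submitters' processing notes; how reads were counted, with which annotation and strand setting and what became of reads with several matches is not given in the sources used here. Gene symbols matched 21748 of 22027 identifiers. No row of mitochondrial ribosomal RNA was among the mt- genes, so the share is of 13 protein-coding genes.

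Counts were filtered with filterByExpr, scaled by TMM and tested with edgeR 4.0.16 (R 4.3.3), quasi-likelihood, group as the only term, two-sided, with Benjamini-Hochberg adjustment over 12674 genes at 0.05. Log2 CPM used a prior count of 2. Alternatives used limma 3.58.1, DESeq2 1.42.0, other scalings, filters and covariates, and each library left out. As a covariate the code number entered as below 80 or not, a cut that the labels do not give. The fit was checked on simulated counts, with 200 genes of mean log2 CPM of at least 2 changed. It recovered 13.5% of them at a 2-fold change, 83.5% at 3-fold and 96.5% at 4-fold. In the same runs it also called 7, 15 and 8 genes in turn that had not been changed. Nothing says that libraries come from separate animals, so p-values cover only the spread between libraries, which may be technical. Members, lists and motifs were chosen with earlier results of these data known. All members are named; from each wider list, up to 3 genes of smallest p are named, with Ppargc1a added as the targeted gene.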

Additional observations from a re-analysis of the deposited data

Results flagged for a closer look

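Mterf3, of the same termination factor family as Mterf2, had 1 library far from the others of its group: G3 3 measured 26.6 CPM, and the other 3 libraries labelled G3 lay between 18.9 and 19.6 CPM. The gap was 0.912 of the group's whole range, above Dixon's 95% critical value for 4 samples. In all, 27 groups of 4 were examined in this way, and chance alone flags about 1 in 20.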

How the results depend on the processing

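No member and no gene of the wider lists passed under any of the 19 other settings. Over all genes, DESeq2 called 3 (654 at an unadjusted p under 0.05) and the replicate block 6 (1160), and the other 17 settings called 0 (231 to 2464), with 548 under edgeR's main setting. Whether the numbers 1 to 3 in the titles pair the libraries is not known and was not tested. The deviations of same-numbered libraries from their group means correlated at 0.456, 0.123 and -0.0863. Those of differently numbered libraries correlated between -0.469 and 0.332. Under the replicate block Slirp had 0.87 and Polg -0.34. On the FPKM scale the median log2 fold change of the members was -0.12 with a pseudocount of 1 and -0.16 with 0.1, and that of Slirp was 0.58 and 0.59.

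Lrpprc, Polg, Slirp, Ssbp1 and Tfb2m kept their direction under all 19. Counts of members higher were 5 at first and 3 with no filter, with either FPKM pseudocount and with either code covariate. Polg2 turned to -0.00079 with RLE, -0.018 with no filter, -0.00047 with DESeq2, -0.035 with voom, -0.081 and -0.12 on FPKM, -0.011 with the block, -0.040 and -0.017 with the code number and code text, and -0.026 with the length trend removed. Top1mt turned to -0.018 with no filter, -0.063 with voom, -0.069 and -0.099 on FPKM, and -0.14 and -0.0037 with the code covariates. Tfb1m turned to 0.075 with voom, Mrpl12 to -0.047 with the code number and Mterf3 to -0.050 with the length trend removed. With 1 library left out the ranges were -0.11 to 0.078 for Polg2, -0.26 to 0.17 for Top1mt, -0.29 to 0.11 for Tfb1m, -0.37 to 0.025 for Polrmt and -0.042 to 0.47 for Mterf2, and -0.62 to 0.031 for Rrm2b, which turned without G3 PGC1aOE 2. The cause of these turns was not tested.

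The difference in mitochondrially encoded share ran from 0.855 to 8.21 percentage points with 1 library left out. The protein-coding genes were the only mt- genes listed, so that alternative was the same value. In the relation to the share, r turned to -0.462 for Polrmt and -0.0778 for Top1mt on log2(FPKM + 1), and to 0.162 for Polg, 0.27 for Polg2 and 0.324 for Lrpprc without the 2 libraries farthest from the median share. Depth limits Polg2, Top1mt and Tfb1m, with 34 to 77 counts per library.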
